A study of Mus musculus with 5 samples.

Results

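Transcript levels in mouse embryos depleted of histone H3.3 were compared with those in knockdown embryos labelled as given H3.2 mRNA. The members are these 2 libraries of the 5 in the series, and they were chosen by their titles. All 5 libraries came from 4-cell embryos of the strain B6D2F1 produced by nuclear transfer, the procedure that moves a donor nucleus into an enucleated oocyte. The other 3 groups were untreated embryos, embryos treated with luciferase, and knockdown embryos given H3.3 mRNA. The knockdown of H3.3 is therefore shared by 3 groups. The donor cell, the knockdown reagent, the number of embryos in a library and the way in which the mRNA was given are not stated in the sources used here. By its title, the series asks whether maternal H3.3 is needed for reprogramming by the oocyte. The comparison asks how knockdown embryos differ when the other H3 form was added.

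The labels limit every value below. One of the compared libraries is titled as H3.2 mRNA but tagged, in its treatment field, as H3.3 mRNA. The title was followed, and the library is called H3.2-labelled throughout. In addition, its source is written as SCNT, as for the luciferase library, whereas the knockdown, untreated and H3.3 mRNA libraries are written as NT. Whether these names mark separate experiments is not given, so the source name and the added mRNA cannot be told apart. The files carry the same split in their number format, since 100% of the values were written with 2 decimals in the luciferase and H3.2-labelled files and 42.5% to 46.0% in the other 3. There was 1 library in each group, so no difference has a replicate check and no test was possible.

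Chromatin of animal cells is packed on nucleosomes that hold histone H3. H3.2 is made from clustered genes during DNA replication and is deposited behind the replication fork, whereas H3.3, encoded by H3f3a and H3f3b, replaces H3 outside of replication at active genes, regulatory elements and heterochromatic repeats with the help of the chaperones Hira, Daxx and Atrx. Both forms differ by only a few residues. The oocyte holds a store of H3.3 that enters the incoming nucleus after fertilization or nuclear transfer, and the cleaving embryo depends at first on maternal mRNAs that it later replaces with its own.

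Levels are given as FPKM, fragments per kilobase of transcript and scaled to the mapped reads, as the authors deposited them. A value of 0 is a listed value and not proof of absence, because the sequencing depth is unknown. Differences are on the scale of log2(FPKM + 1), which understates the change of low genes, and genes at least 4-fold apart on that scale were counted as higher or lower. Of 22026 genes, 13144 had a mean of at least 1 FPKM over the 5 libraries and were compared. The H3.2-labelled library had 12261 genes above 0 and the knockdown 10496, with 10443 to 12300 in the other 3. All values of a library summed to 2467002 FPKM in the H3.2-labelled library and 3578517 FPKM in the knockdown, against 3044067 to 3555711 FPKM in the other 3. Pearson's r of log2(FPKM + 1) over these genes was 0.805 for the compared pair and 0.740 to 0.835 for the other pairs, which is a description across genes that are not independent. Of 15 markers of cleavage embryos, 14 were found in the files and 13 were above 0 in both libraries, among them Dppa3, a maternal-effect gene, and Obox6, a homeobox gene of the early embryo. Zscan4d, a gene of the activating genome, was at 0.06 in the knockdown and listed at 0 in the H3.2-labelled library.

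The targeted genes were low in both libraries. H3f3b stood at 535 FPKM in the knockdown and 292 FPKM in the H3.2-labelled library, beside 4484 untreated, 2230 with luciferase and 371 with H3.3 mRNA. H3f3a stood at 128 FPKM in the knockdown and 129 FPKM in the H3.2-labelled library, beside 783 untreated, 3503 with luciferase and 95.5 with H3.3 mRNA. The 2 genes together summed to 420 FPKM in the H3.2-labelled library, which was 63.3% of the knockdown's 664 and 7.33% of the sum in the luciferase library. H3f3a was therefore level between the compared libraries and H3f3b lower in the H3.2-labelled one, and both were far under the 2 libraries without a knockdown. Both genes have near-identical copies elsewhere in the genome, so that reads may be split among them.

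Endogenous H3 genes of the replication-coupled kind were at 12.1 FPKM or less in the compared libraries. The values under the symbols of the H3.2 genes did not show an added H3.2 mRNA. All 11 of the H3.1 and H3.2 genes found were listed at 0 in the knockdown and also in the H3.3 mRNA library. Of these genes, 8 were listed at 0 with luciferase, 7 in the H3.2-labelled library and 2 in untreated embryos. In the H3.2-labelled library, Hist1h3e and Hist1h3f, which encode H3.2, were at 0.11 and 0.05, and the other H3.2 genes were listed at 0. Hist1h3g stood at 0 FPKM in the knockdown and 12.1 FPKM in the H3.2-labelled library, beside 3.06 untreated, 0.3 with luciferase and 0 with H3.3 mRNA. Hist1h3a stood at 0 FPKM in the knockdown and 2.76 FPKM in the H3.2-labelled library, beside 16.6 untreated, 0 with luciferase and 0 with H3.3 mRNA. Both encode H3.1 and were the highest of the family in the H3.2-labelled library, and Hist1h3a was higher still in untreated embryos. Whether the added mRNA was read under these symbols was not tested.

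Across all genes, 2558 stood at least 4-fold higher in the H3.2-labelled library than in the knockdown, 19.5% of those compared, and 1198 were at least 4-fold lower, or 9.11%. Of the higher genes, 1567 had a listed 0 in the knockdown. Of the lower genes, 430 were listed at 0 in the H3.2-labelled library. Among the 9896 genes above 0 in both libraries, 991 were higher (10%) and 768 lower (7.76%). The median difference was 0.15 on the log2 scale, with quartiles of -0.78 and 1.54, and 53% of genes were higher and 40.1% lower by any amount. Changes of a group are read below against that median. The libraries hold RNA of whole embryos, so fewer cells that express a gene and less RNA in each cell cannot be told apart.

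The balance between higher and lower genes turned with the level of expression. From 1 to 5 FPKM there were 744 higher and 177 lower genes among 2072. From 100 to 500 FPKM the counts were 193 and 217 among 3331. At 500 FPKM and above only 9 of 1494 genes were higher and 137 were lower, with a median of -0.61. These levels depend on the scale, since the values of the H3.2-labelled library summed to less. With both libraries scaled to the same sum, the median at this level was -0.07, against 0.60 for all genes, with 51 higher and 39 lower. The most abundant transcripts thus lay under the median of all genes on both of these scales, and their own median was well below 0 as deposited and near 0 at equal sums. Across chromosomes the median ranged from 0.0 to 0.47, the share of higher genes from 16.8% to 22.7% and the share of lower genes from 6.54% to 13.4%.

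**Figure D1:**
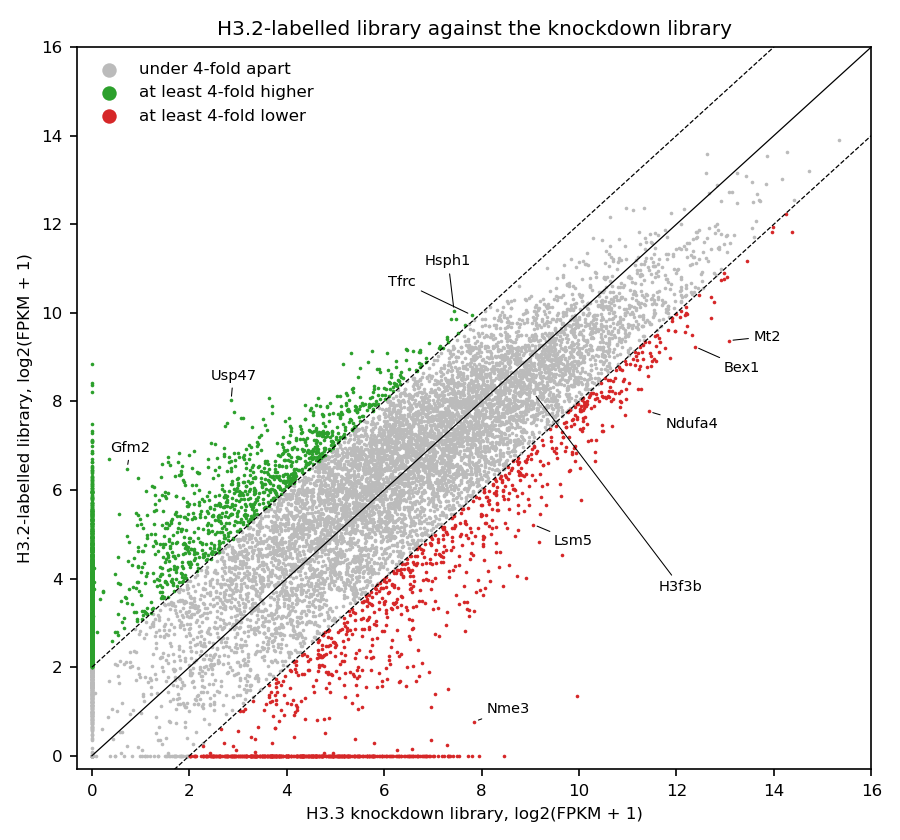
Each of the 13144 genes is a point at its log2(FPKM + 1) in the knockdown library (x axis) and in the H3.2-labelled library (y axis); the solid line marks equal values and the dashed lines a difference of 4-fold. The 2558 higher genes (green) lie mostly at low levels and include a column listed at 0 in the knockdown, whereas the 1198 lower genes (red) reach up to the most abundant transcripts, such as Mt2.

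The 15 genes with the largest differences among those above 0 in both libraries are described first. The ranking itself favours a low value in the knockdown and a high one in the H3.2-labelled library, so the values of the other 3 libraries are what it leaves free. Gfm2, a mitochondrial elongation factor used in ribosome recycling, stood at 0.65 FPKM in the knockdown and 88.6 FPKM in the H3.2-labelled library, beside 5.18 untreated, 51.9 with luciferase and 69.4 with H3.3 mRNA. Ddr2, a receptor kinase for collagen, stood at 0.94 FPKM in the knockdown and 76.1 FPKM in the H3.2-labelled library, beside 0 untreated, 12.2 with luciferase and 67.3 with H3.3 mRNA. The H3.3 mRNA library was close to the H3.2-labelled one for both, and the untreated library was as low as the knockdown for Ddr2 but not for Gfm2. Usp47, a ubiquitin protease, stood at 6.25 FPKM in the knockdown and 259 FPKM in the H3.2-labelled library, beside 44.3 untreated, 70 with luciferase and 45.7 with H3.3 mRNA. Ipo7, an importin that carries proteins into the nucleus, stood at 1.96 FPKM in the knockdown and 97.7 FPKM in the H3.2-labelled library, beside 9.77 untreated, 168 with luciferase and 137 with H3.3 mRNA. Usp47 was highest in the H3.2-labelled library by a wide margin, whereas Ipo7 was higher in the luciferase and H3.3 mRNA libraries than in it. Myst4, a histone acetyltransferase, stood at 2.46 FPKM in the knockdown and 113 FPKM in the H3.2-labelled library, beside 77.7 untreated, 91.2 with luciferase and 115 with H3.3 mRNA. The 4 other libraries lay close together for Myst4 and the knockdown alone was low.

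The knockdown was the lowest of the 5 libraries for 12 of these 15 genes and the H3.2-labelled library the highest for 11, counts that the ranking favours and that support nothing by themselves. Uimc1, which binds ubiquitin at DNA breaks, stood at 2.42 FPKM in the knockdown and 97.5 FPKM in the H3.2-labelled library, beside 88.6 untreated, 41.1 with luciferase and 87 with H3.3 mRNA. Zfp317, a zinc finger gene, stood at 1.35 FPKM in the knockdown and 66.9 FPKM in the H3.2-labelled library, beside 65.6 untreated, 35.5 with luciferase and 48.8 with H3.3 mRNA. Cdr2 stood at 6.54 FPKM in the knockdown and 217 FPKM in the H3.2-labelled library, beside 177 untreated, 68.5 with luciferase and 112 with H3.3 mRNA. These 3 genes shared the pattern of Myst4, with a low value in the knockdown only. Rab33b, a Golgi GTPase, stood at 1.71 FPKM in the knockdown and 94.5 FPKM in the H3.2-labelled library, beside 95.5 untreated, 29.6 with luciferase and 37.9 with H3.3 mRNA. Rfxank, a subunit of the complex at MHC class II promoters, stood at 2.05 FPKM in the knockdown and 93.1 FPKM in the H3.2-labelled library, beside 49.7 untreated, 32.7 with luciferase and 60.6 with H3.3 mRNA. Rab33b and Rfxank showed the same single low library. Gba2, a glucosylceramidase, stood at 0.46 FPKM in the knockdown and 42.8 FPKM in the H3.2-labelled library, beside 0 untreated, 19.9 with luciferase and 62.8 with H3.3 mRNA. Uhrf1bp1l stood at 1.17 FPKM in the knockdown and 62.1 FPKM in the H3.2-labelled library, beside 0.73 untreated, 57 with luciferase and 34.4 with H3.3 mRNA. Arap2 stood at 1.66 FPKM in the knockdown and 77.9 FPKM in the H3.2-labelled library, beside 3 untreated, 27.4 with luciferase and 56.7 with H3.3 mRNA. For these 3 genes the untreated library was low as well, and for Gba2 and Uhrf1bp1l it was lower than the knockdown. Unc13c, which primes synaptic vesicles, stood at 1.97 FPKM in the knockdown and 107 FPKM in the H3.2-labelled library, beside 6.86 untreated, 2.13 with luciferase and 18.9 with H3.3 mRNA. Plekha3, a lipid-binding Golgi protein, stood at 2.96 FPKM in the knockdown and 109 FPKM in the H3.2-labelled library, beside 51.4 untreated, 9.56 with luciferase and 43.3 with H3.3 mRNA. Unc13c and Plekha3 were highest in the H3.2-labelled library, and among the other 3 lowest with luciferase.

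At the other end of the order, the knockdown was the highest library for 13 of the 15 genes and the H3.2-labelled library the lowest for 6, which the ranking favours in the same way. Nme3, a nucleoside diphosphate kinase, stood at 230.3 FPKM in the knockdown and 0.71 FPKM in the H3.2-labelled library, beside 0.64 untreated, 211 with luciferase and 0.36 with H3.3 mRNA. Rps23, a protein of the small ribosomal subunit, stood at 155 FPKM in the knockdown and 0.18 FPKM in the H3.2-labelled library, beside 119.7 untreated, 0.22 with luciferase and 76.8 with H3.3 mRNA. Nme3 was high in the knockdown and luciferase libraries and near 0 in the other 3, and Rps23 was near 0 in the luciferase and H3.2-labelled libraries, the 2 with the SCNT source name. Rps23 has near-identical copies that may take its reads. Acsm3, an acyl-CoA synthetase of mitochondria, stood at 124 FPKM in the knockdown and 0.29 FPKM in the H3.2-labelled library, beside 2.81 untreated, 71.2 with luciferase and 74.7 with H3.3 mRNA. Pet117, an assembly factor of cytochrome oxidase, stood at 94.5 FPKM in the knockdown and 0.11 FPKM in the H3.2-labelled library, beside 0.99 untreated, 0 with luciferase and 0 with H3.3 mRNA. Sfxn4, a mitochondrial sideroflexin, stood at 157 FPKM in the knockdown and 1.84 FPKM in the H3.2-labelled library, beside 0 untreated, 36.1 with luciferase and 3.84 with H3.3 mRNA. Pet117 was high in the knockdown alone, whereas Acsm3 was also high with luciferase and with H3.3 mRNA, and Sfxn4 with luciferase. Dusp2, a phosphatase of MAP kinases, stood at 86.9 FPKM in the knockdown and 1.96 FPKM in the H3.2-labelled library, beside 0 untreated, 0 with luciferase and 0 with H3.3 mRNA. Bnipl stood at 120.4 FPKM in the knockdown and 2.73 FPKM in the H3.2-labelled library, beside 0 untreated, 6.49 with luciferase and 5.34 with H3.3 mRNA. Mmp19, a matrix metalloprotease, stood at 26.1 FPKM in the knockdown and 0.04 FPKM in the H3.2-labelled library, beside 0 untreated, 3.31 with luciferase and 16.5 with H3.3 mRNA. All 3 were listed at 0 in untreated embryos. Rnaset2b, a ribonuclease with a near-identical copy beside it, stood at 41.2 FPKM in the knockdown and 0.31 FPKM in the H3.2-labelled library, beside 19.8 untreated, 0.15 with luciferase and 1.37 with H3.3 mRNA. Dusp2 and Bnipl were high in the knockdown only, whereas Mmp19 was also high with H3.3 mRNA and Rnaset2b in untreated embryos.

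**Figure D2:**
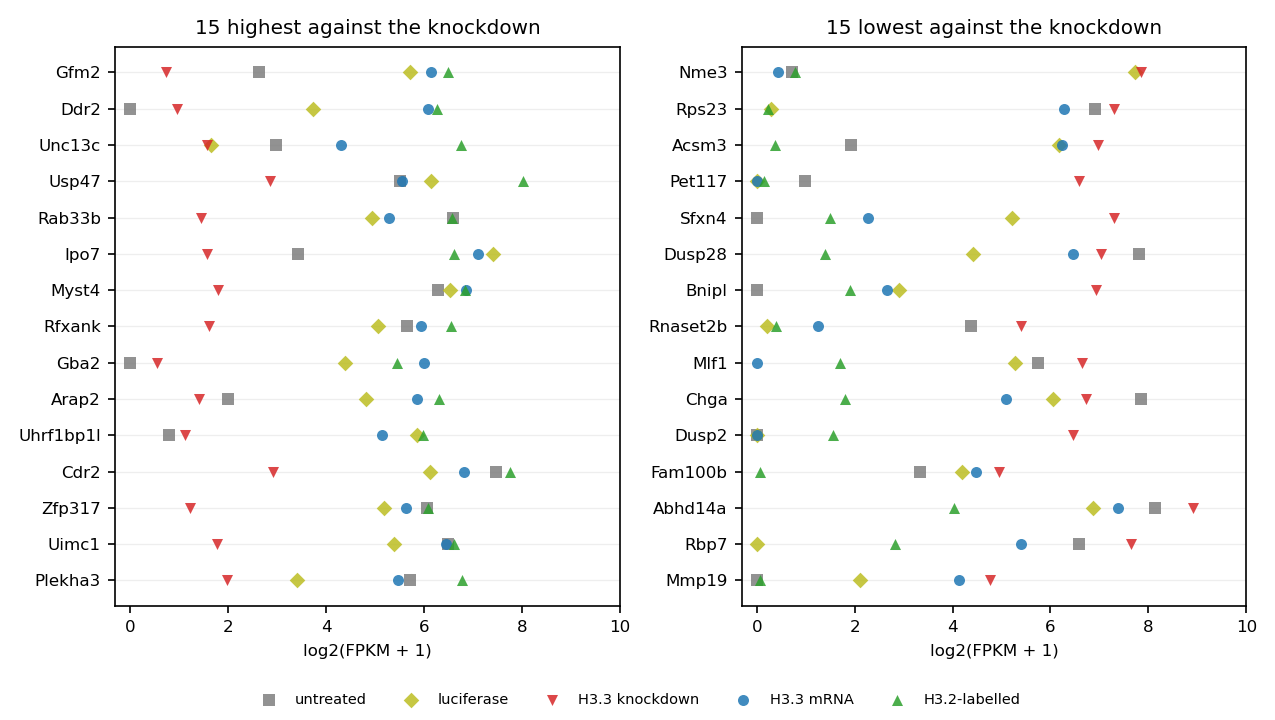
The 15 genes with the largest positive (left) and negative (right) difference among genes above 0 in both compared libraries are drawn with their log2(FPKM + 1) in each of the 5 libraries, 1 symbol a library. The ranking favours extreme values of the compared libraries; in the left panel the knockdown is the lowest symbol for 12 of 15 genes, and in the right panel the highest for 13 of 15.

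Many larger steps involved a listed 0. Of the genes listed at 0 in the knockdown, the highest in the H3.2-labelled library were mostly short RNA genes, such as the snoRNA genes Snord34 at 329 and Snora33 at 296 and the gene of the precursor of miR-293 (Mir293) at 161. Of 54 small RNA genes past the filter, 14 were higher and 8 lower, beside 19.5% and 9.11% of all genes. FPKM of genes shorter than a fragment are unstable, so the genes were ranked without them as well, in an order added once the values were known. Skap2, an adaptor of immune cell signalling, stood at 0 FPKM in the knockdown and 154 FPKM in the H3.2-labelled library, beside 15.5 untreated, 2.92 with luciferase and 34.4 with H3.3 mRNA. Opa3, a mitochondrial protein, stood at 0 FPKM in the knockdown and 136 FPKM in the H3.2-labelled library, beside 145 untreated, 78.4 with luciferase and 50.1 with H3.3 mRNA. Casp2, a caspase, stood at 0 FPKM in the knockdown and 113 FPKM in the H3.2-labelled library, beside 0 untreated, 53.3 with luciferase and 19.9 with H3.3 mRNA. Each of these 3 was listed at 0 in the knockdown and above 0 with H3.3 mRNA, and Casp2 was also listed at 0 in untreated embryos. Stx1a, a syntaxin, stood at 0 FPKM in the knockdown and 127 FPKM in the H3.2-labelled library, beside 0 untreated, 35.2 with luciferase and 137 with H3.3 mRNA. Sgms1, which makes sphingomyelin, stood at 0 FPKM in the knockdown and 117 FPKM in the H3.2-labelled library, beside 33.3 untreated, 27.6 with luciferase and 35.1 with H3.3 mRNA. Plod2, a lysyl hydroxylase of collagen, stood at 0 FPKM in the knockdown and 97.4 FPKM in the H3.2-labelled library, beside 8.26 untreated, 60.8 with luciferase and 23.9 with H3.3 mRNA. Stx1a was as high with H3.3 mRNA as in the H3.2-labelled library, and Sgms1 and Plod2 were highest in the latter.

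Among genes listed at 0 in the H3.2-labelled library, the ranking is by the value in the knockdown and so favours a high one. Of the 8 named by the rule without small RNA genes, 5 had their highest value in the knockdown. Rom1, a membrane protein of photoreceptors, stood at 209 FPKM in the knockdown and 0 FPKM in the H3.2-labelled library, beside 0 untreated, 0 with luciferase and 0 with H3.3 mRNA. Mlana, a melanocyte protein, stood at 184 FPKM in the knockdown and 0 FPKM in the H3.2-labelled library, beside 0 untreated, 35.3 with luciferase and 0 with H3.3 mRNA. Asphd1 stood at 126 FPKM in the knockdown and 0 FPKM in the H3.2-labelled library, beside 0 untreated, 0 with luciferase and 0 with H3.3 mRNA. Rom1 and Asphd1 were above 0 in no library but the knockdown, and so passed the filter only through it. Ift27, a subunit of intraflagellar transport, stood at 179.6 FPKM in the knockdown and 0 FPKM in the H3.2-labelled library, beside 426 untreated, 4.94 with luciferase and 91 with H3.3 mRNA. Ifitm1, an interferon-induced membrane protein, stood at 160.2 FPKM in the knockdown and 0 FPKM in the H3.2-labelled library, beside 4.84 untreated, 32.3 with luciferase and 77.9 with H3.3 mRNA. Rgs10, a regulator of G-protein signalling, stood at 121 FPKM in the knockdown and 0 FPKM in the H3.2-labelled library, beside 122 untreated, 56.8 with luciferase and 25.4 with H3.3 mRNA. These 3 genes were above 0 in each of the 4 other libraries, and Ift27 was highest in untreated embryos.

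Abundant genes gave smaller steps. Hsph1, a chaperone of the Hsp110 family, stood at 172 FPKM in the knockdown and 1048 FPKM in the H3.2-labelled library, beside 513 untreated, 470.1 with luciferase and 430.2 with H3.3 mRNA. Tfrc, the transferrin receptor, stood at 221 FPKM in the knockdown and 988 FPKM in the H3.2-labelled library, beside 749.5 untreated, 879.6 with luciferase and 906 with H3.3 mRNA. Psmd1, a subunit of the proteasome base, stood at 176 FPKM in the knockdown and 933 FPKM in the H3.2-labelled library, beside 608 untreated, 874 with luciferase and 739 with H3.3 mRNA. The ratio of the H3.2-labelled library to the knockdown was 6.09 for Hsph1, 4.47 for Tfrc and 5.31 for Psmd1. The ranking favours a low knockdown, which was the lowest of the 5 libraries for all of these and for the other 3 genes so ranked. Those were Cpsf3, the endonuclease that cuts pre-mRNA ends, with a ratio of 5.63, Kif23, a kinesin of the central spindle, with 4.35, and Gpd2, a mitochondrial glycerol phosphate dehydrogenase, with 4.22. Hsph1 was highest in the H3.2-labelled library, whereas Kif23 and Gpd2 were highest with luciferase.

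Lower genes of this level were ranked in the same way. Mt2, a metallothionein, stood at 8633 FPKM in the knockdown and 662 FPKM in the H3.2-labelled library, beside 2824 untreated, 1385 with luciferase and 7028 with H3.3 mRNA. Ndufa4, a subunit of the respiratory chain, stood at 2762 FPKM in the knockdown and 218 FPKM in the H3.2-labelled library, beside 1252 untreated, 376 with luciferase and 643 with H3.3 mRNA. Bex1 stood at 5317 FPKM in the knockdown and 602 FPKM in the H3.2-labelled library, beside 2385 untreated, 835 with luciferase and 1930 with H3.3 mRNA. The ratio of the knockdown to the H3.2-labelled library was 12.7 for Ndufa4 and 8.82 for Bex1, and larger than either for Mt2. Timm8b, a chaperone of mitochondrial protein import, stood at 1627 FPKM in the knockdown and 174 FPKM in the H3.2-labelled library, beside 139.8 untreated, 512 with luciferase and 529.5 with H3.3 mRNA. Atp6v0c, a subunit of the vacuolar proton pump, stood at 1297 FPKM in the knockdown and 139.9 FPKM in the H3.2-labelled library, beside 534 untreated, 518 with luciferase and 187 with H3.3 mRNA. Ubtd1 stood at 1418 FPKM in the knockdown and 159 FPKM in the H3.2-labelled library, beside 347 untreated, 241 with luciferase and 549 with H3.3 mRNA. The knockdown was the highest library for all 6, and the H3.2-labelled library was the lowest for each except Timm8b, which was lower in untreated embryos. The ranking favours both. Of these 6 genes, 5 have a longest transcript of at most 2000 bases. All 6 of the higher ones exceed it, as do most genes, since the median of all genes is 3184 bases. With the length trend removed, Mt2 was at -1.92, Bex1 at -1.72 and Timm8b at -1.44, under 4-fold, and of the higher genes Hsph1, Tfrc, Kif23 and Gpd2 also no longer passed 4-fold.

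The length of the transcript ordered the differences over the whole set of genes. Lengths were taken from the longest annotated transcript, known for 98.8% of the genes. Spearman's rho between length and difference was 0.35 over 12992 genes and 0.51 over the 6471 of them with a mean of at least 50 FPKM; these are descriptions across genes that share both libraries, and FPKM had already been divided by length. Genes of 500 to 1000 bases had a median of -1.46, with 31.7% lower and 10.3% higher. Genes of over 6000 bases had a median of 1.23, with 3.22% lower and 31.2% higher. The classes between them had medians, in order of length, of -0.88, -0.28, 0.0, 0.41 and 0.77, and the shortest class, of up to 500 bases, had a median of -0.69 over 123 genes. Higher genes had a median length of 3896 bases, lower genes 2043 and all genes 3184. GC content had a rho of -0.15 with the difference, and its median was 48.9% in higher and 52.0% in lower genes, against 50% in all.

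The same measure was taken between other pairs, each of which shares 1 of the compared libraries. At a mean of at least 50 FPKM, rho between length and difference was 0.42 for H3.3 mRNA minus knockdown, 0.39 for luciferase minus knockdown and 0.20 for untreated minus knockdown. It was 0.19 for the H3.2-labelled library minus luciferase, 0.25 minus untreated and 0.15 minus H3.3 mRNA. The trend was thus steepest in the compared pair and positive in each of the 6 others. The source of the trend, in the embryos, the RNA or the libraries, was not tested.

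**Figure D3:**
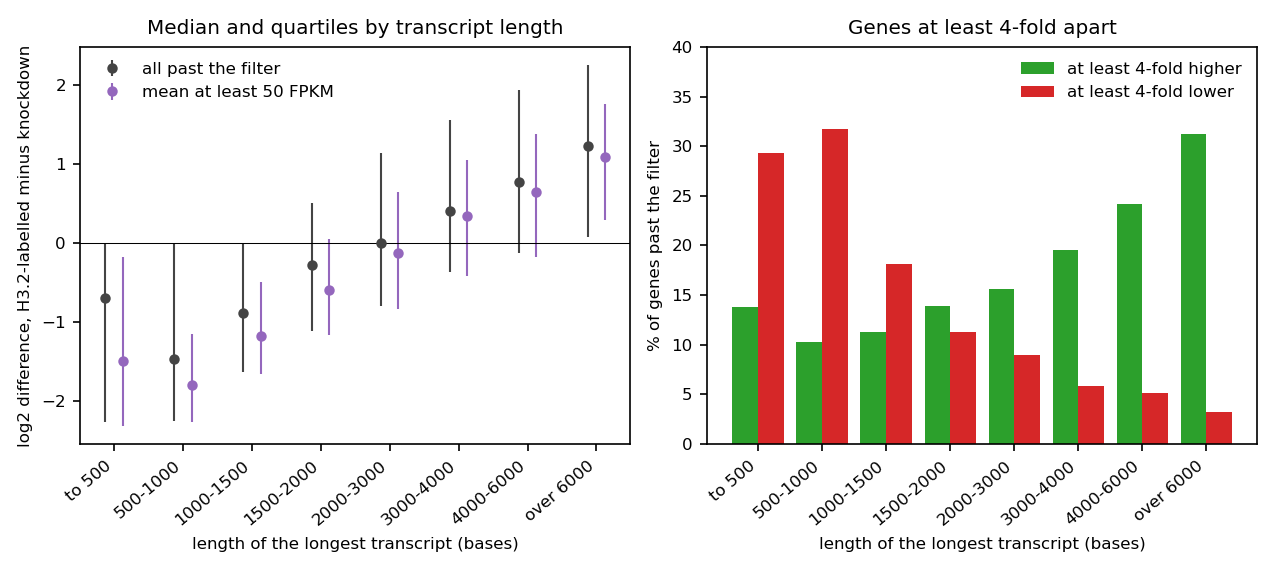
On the left, points give the median log2 difference (H3.2-labelled minus knockdown) and lines the quartiles of the genes in each class of transcript length, for all genes past the filter (black) and for those with a mean of at least 50 FPKM (purple). On the right, bars give the percentage of all genes past the filter that were at least 4-fold higher (green) or lower (red); lower genes make up 31.7% at 500 to 1000 bases and 3.22% over 6000 bases, and higher genes 10.3% and 31.2%.

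The lists of genes by function, 31 in number, were chosen with earlier results of these data known, and 29 had at least 5 members past the filter. Their order followed length: Spearman's rho between a list's median length and its median difference was 0.79 over the 29 lists, which overlap in part. In 24 of the 26 lists with at least 5 members on each side of 2000 bases, the longer members had a higher median than the shorter ones. In the spliceosome list, 23 short members had a median of -1.29 and 59 long ones 0.50. In the list of oocyte genes, 39 short members had a median of -0.52 and 33 long ones 1.38. Cytosolic ribosomal proteins and fibroblast markers were the 2 lists without that order. List members named below are mostly those with the largest differences between the compared libraries. That choice favours extreme values in these libraries, so being highest or lowest in them supports nothing by itself.

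The 3 lists with the lowest medians were respiratory chain, cytosolic ribosomal protein and mitochondrial ribosomal protein genes, and few of their members were higher at all. Of 77 nuclear genes of the respiratory chain, 70 were lower and 7 higher by any amount, and the median was -1.78. At 4-fold, 29 were lower (37.7%, against 9.11% of all genes) and 0 higher (against 19.5%). Of 82 cytosolic ribosomal protein genes, 79 were lower by any amount, 29 at least 4-fold (35.4%), and the median was -1.74. Of 74 mitochondrial ribosomal protein genes, 63 were lower by any amount, 15 at least 4-fold (20.3%), and the median was -1.16. The median transcript lengths of these lists were 1141, 1076 and 1866 bases, in this order. Of all genes in a length class, 31.7% were at least 4-fold lower at 500 to 1000 bases, 18.1% at 1000 to 1500 and 11.3% at 1500 to 2000. Ribosomal protein genes made up 5.18% of the summed values of the H3.2-labelled library and 9.66% of the knockdown's, with 6.87% to 8.83% in the other 3. Under the alternatives tried, the median relative to all genes stayed negative for the 3 lists, from -1.94 to -0.67 for the respiratory chain, from -1.91 to -0.57 for cytosolic and from -1.34 to -0.54 for mitochondrial ribosomal proteins. The values nearest 0 are those with the length trend removed.

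Other genes of the same length class were also lower; the level was held only above a minimum and not matched. At a mean of at least 50 FPKM and 500 to 1000 bases, 276 genes outside these lists and outside the proteasome and spliceosome lists had a median of -1.74. There the 32 respiratory chain genes had a median of -2.0, the 31 cytosolic ribosomal protein genes -1.84 and the 14 mitochondrial ones -1.77. At 1000 to 1500 bases the medians were -1.13 over 553 other genes, -1.56 over 14 respiratory chain genes, -1.46 over 22 cytosolic and -1.13 over 16 mitochondrial ribosomal protein genes. At 1500 to 2000 bases the medians were -0.58 for other genes, -1.07 for 11 respiratory chain, -0.91 for 9 cytosolic and -0.42 for 7 mitochondrial ribosomal protein genes. The respiratory chain and cytosolic ribosomal protein genes had lower medians than the other genes in each of the 3 classes, and the mitochondrial ones did not.

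Ndufs5, a subunit of complex I, stood at 1048 FPKM in the knockdown and 53.5 FPKM in the H3.2-labelled library, beside 400.4 untreated, 71.3 with luciferase and 429 with H3.3 mRNA. Cox6c, a subunit of cytochrome oxidase, stood at 967 FPKM in the knockdown and 100.5 FPKM in the H3.2-labelled library, beside 442 untreated, 237 with luciferase and 458 with H3.3 mRNA. Ndufs4, of complex I, stood at 258 FPKM in the knockdown and 26.4 FPKM in the H3.2-labelled library, beside 218 untreated, 75.4 with luciferase and 66 with H3.3 mRNA. All 3 were highest in the knockdown and lowest in the H3.2-labelled library, which their choice by the largest difference favours. Rps27l, a paralogue of a ribosomal protein, stood at 5090 FPKM in the knockdown and 717 FPKM in the H3.2-labelled library, beside 2151 untreated, 1432 with luciferase and 2133 with H3.3 mRNA. Rps13, of the small subunit, stood at 1669 FPKM in the knockdown and 264 FPKM in the H3.2-labelled library, beside 797 untreated, 552 with luciferase and 709 with H3.3 mRNA. Rpl22l1, a paralogue in the large subunit, stood at 495 FPKM in the knockdown and 54.5 FPKM in the H3.2-labelled library, beside 454 untreated, 187 with luciferase and 360.5 with H3.3 mRNA. These 3 had the same highest and lowest libraries. Mrps36 stood at 57.1 FPKM in the knockdown and 1.93 FPKM in the H3.2-labelled library, beside 10.7 untreated, 10.1 with luciferase and 7.28 with H3.3 mRNA. Mrpl13, of the large mitochondrial subunit, stood at 2004 FPKM in the knockdown and 309.7 FPKM in the H3.2-labelled library, beside 1037 untreated, 584 with luciferase and 653 with H3.3 mRNA. Mrps21, of the small one, stood at 1415 FPKM in the knockdown and 176 FPKM in the H3.2-labelled library, beside 109 untreated, 349.5 with luciferase and 732 with H3.3 mRNA. Mrps21 was the exception, as it was lower in untreated embryos than in the H3.2-labelled library.

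Spliceosome and proteasome genes had medians under that of all genes, by less than the lists above. Of 82 spliceosome genes, 48 were lower and 34 higher by any amount. At 4-fold, 10 were lower (12.2%, against 9.11% of all genes) and 1 higher (1.22%, against 19.5%). The median was -0.43. Relative to all genes, that median ranged from -0.70 to -0.21 under the alternatives tried. Lsm5, a ring protein of the U6 snRNP, stood at 533 FPKM in the knockdown and 36.3 FPKM in the H3.2-labelled library, beside 267 untreated, 379 with luciferase and 299 with H3.3 mRNA. Snrpg, a core Sm protein, stood at 1983 FPKM in the knockdown and 264 FPKM in the H3.2-labelled library, beside 815 untreated, 596 with luciferase and 1200 with H3.3 mRNA. Snrpe, another Sm protein, stood at 1477 FPKM in the knockdown and 272 FPKM in the H3.2-labelled library, beside 441 untreated, 344 with luciferase and 969 with H3.3 mRNA. The small ring proteins Lsm5, Snrpg, Snrpe and Lsm7 were the 4 members with the largest differences. All 4 were highest in the knockdown and lowest in the H3.2-labelled library, which that ranking favours. Of 47 proteasome genes, 38 were lower and 7 higher by any amount. At 4-fold there was 1 in each direction (2.13%, against 19.5% higher and 9.11% lower of all genes). The median was -0.68. Relative to all genes, it ranged from -1.03 to -0.07, the latter with quantile normalization. Psmg4, an assembly chaperone, stood at 244 FPKM in the knockdown and 14.8 FPKM in the H3.2-labelled library, beside 206 untreated, 76.6 with luciferase and 124 with H3.3 mRNA. Psme4, the activator PA200, stood at 84.7 FPKM in the knockdown and 312 FPKM in the H3.2-labelled library, beside 50 untreated, 139 with luciferase and 176 with H3.3 mRNA. Psmg4, with a transcript of 555 bases, was lowest in the H3.2-labelled library, and Psme4, with 6491, was highest in it.

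**Figure D4:**
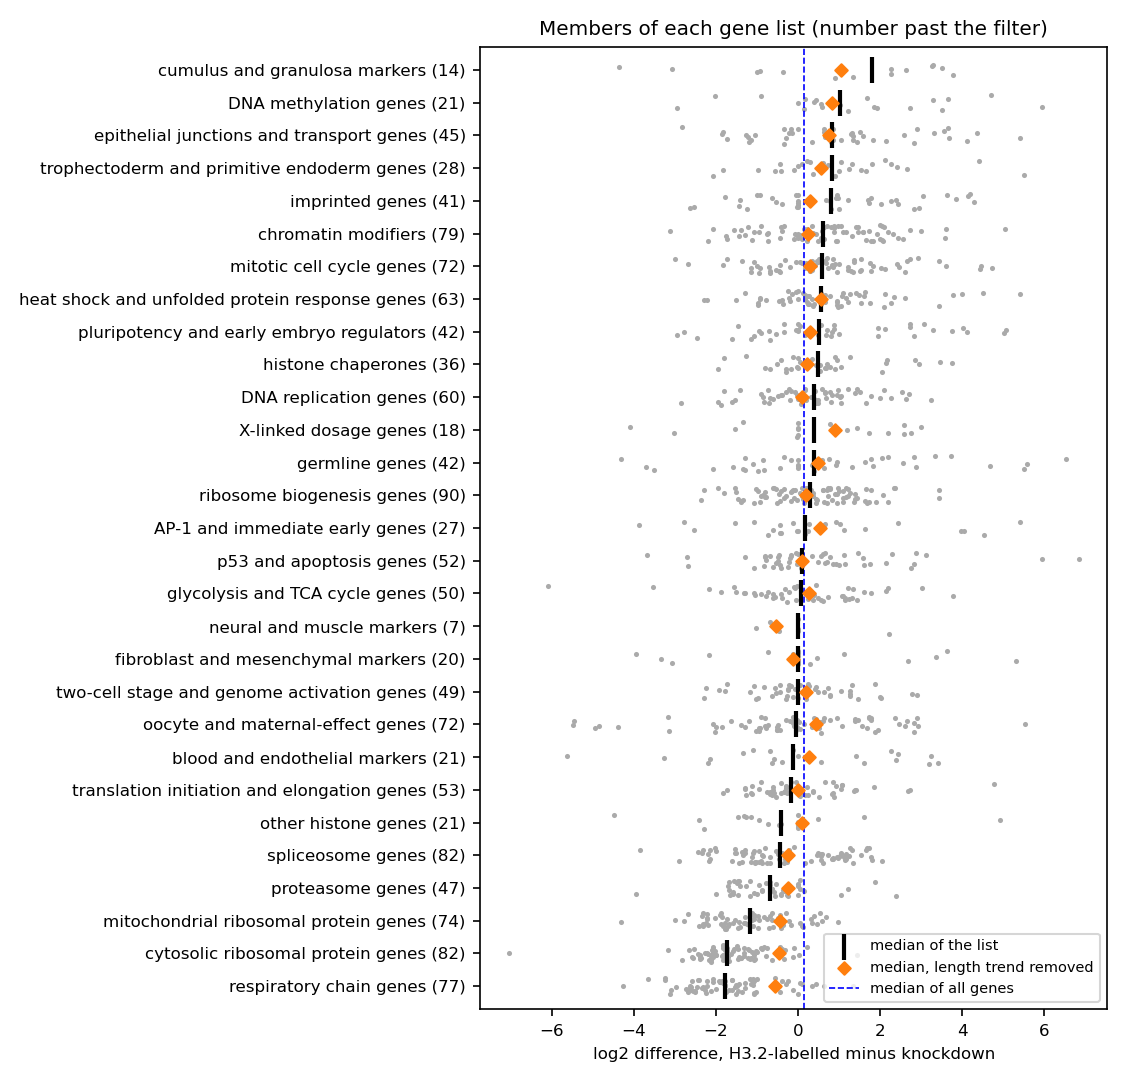
Each grey point is a list member past the filter at its log2 difference (H3.2-labelled minus knockdown), with the number of members in brackets, spread vertically only for legibility. Black bars give each list's median, orange diamonds the median with the length trend removed, and the dashed line the median of all genes, 0.15; respiratory chain and ribosomal protein lists lie lowest at -1.78 and -1.74, and with the trend removed at -0.57 and -0.46.

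Histone chaperones and chromatin modifiers had medians above that of all genes. Of 36 histone chaperone genes, 23 were higher and 12 lower by any amount, with 7 at least 4-fold higher (19.4%), 0 lower and a median of 0.48. Atrx, a remodeller that deposits H3.3 at repeats together with Daxx, stood at 2.76 FPKM in the knockdown and 26.3 FPKM in the H3.2-labelled library, beside 2.44 untreated, 41.9 with luciferase and 43.8 with H3.3 mRNA. Tonsl, which binds new histones at replication forks, stood at 2.47 FPKM in the knockdown and 37.1 FPKM in the H3.2-labelled library, beside 10 untreated, 5.4 with luciferase and 13.2 with H3.3 mRNA. Ino80, a remodelling ATPase, stood at 25.6 FPKM in the knockdown and 205 FPKM in the H3.2-labelled library, beside 161 untreated, 144 with luciferase and 141 with H3.3 mRNA. Tonsl and Ino80 were highest in the H3.2-labelled library and lowest in the knockdown. Chd2, a remodeller that has been linked to H3.3 deposition, stood at 0.94 FPKM in the knockdown and 25.3 FPKM in the H3.2-labelled library, beside 0 untreated, 9.46 with luciferase and 18.8 with H3.3 mRNA. Atrx and Chd2 were low in untreated embryos as well, whereas Ino80 was low in the knockdown alone. Of 79 chromatin modifiers, 54 were higher and 23 lower by any amount, 14 at least 4-fold higher (17.7%) and 3 lower, with a median of 0.61. Ezh1, a methyltransferase of Polycomb complex 2, stood at 9.54 FPKM in the knockdown and 127 FPKM in the H3.2-labelled library, beside 15.3 untreated, 94.2 with luciferase and 107 with H3.3 mRNA. Kat2b, an acetyltransferase, stood at 1.04 FPKM in the knockdown and 23.6 FPKM in the H3.2-labelled library, beside 6.6 untreated, 23 with luciferase and 20.6 with H3.3 mRNA. Cbx8, a Polycomb reader, stood at 265 FPKM in the knockdown and 29.5 FPKM in the H3.2-labelled library, beside 0 untreated, 24.4 with luciferase and 56.8 with H3.3 mRNA. Ezh1 and Kat2b were also high with luciferase and H3.3 mRNA and low in untreated embryos, whereas Cbx8 was high in the knockdown alone. Both lists' shares of higher genes at 4-fold were near the 19.5% of all genes. Their shares of lower genes, 0.0% and 3.8%, were under the 9.11% of all genes. With the length trend removed, their medians were 0.22 and 0.25 against 0.10 for all genes.

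Of 21 genes of DNA methylation, 17 were higher and 3 lower by any amount, with a median of 1.03. Relative to all genes, that median stayed between 0.44 and 0.96 under the alternatives tried. At 4-fold, 6 were higher (28.6%, against 19.5% of all genes) and 2 lower (9.52%). The summed level went the other way, from 21610 FPKM in the knockdown to 7296 FPKM in the H3.2-labelled library. Dppa3, which protects the maternal genome from demethylation and is the most abundant member, stood at 19540 FPKM in the knockdown and 4818 FPKM in the H3.2-labelled library, beside 13790 untreated, 10260 with luciferase and 8550 with H3.3 mRNA. Zfp57, a zinc finger protein that keeps methylation at imprints, stood at 5.79 FPKM in the knockdown and 84.6 FPKM in the H3.2-labelled library, beside 23.2 untreated, 15.4 with luciferase and 18 with H3.3 mRNA. Gadd45a, a DNA damage gene linked to demethylation, stood at 0 FPKM in the knockdown and 61.2 FPKM in the H3.2-labelled library, beside 258 untreated, 175 with luciferase and 95.3 with H3.3 mRNA. Zfp57 was highest in the H3.2-labelled library, whereas Gadd45a was highest in untreated embryos and listed at 0 in the knockdown. Of 41 imprinted genes, 12 passed 4-fold upward (29.3%) and 2 downward, with a median of 0.81. Zim3 stood at 0.03 FPKM in the knockdown and 17.8 FPKM in the H3.2-labelled library, beside 0.03 untreated, 6.73 with luciferase and 24.4 with H3.3 mRNA. Nnat stood at 0 FPKM in the knockdown and 16.6 FPKM in the H3.2-labelled library, beside 0 untreated, 108 with luciferase and 9.61 with H3.3 mRNA. Meg3, a noncoding RNA, stood at 0 FPKM in the knockdown and 13.5 FPKM in the H3.2-labelled library, beside 0 untreated, 29.4 with luciferase and 91 with H3.3 mRNA. All 3 were at or near 0 in untreated embryos and in the knockdown. The imprinted list was lower than all genes, at -0.12, when each library was scaled to the same sum.

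Regulators of the early embryo differed among themselves. Of 42 pluripotency genes, 11 passed 4-fold upward (26.2%) and 3 downward, and the median was 0.52. Esrrb, a nuclear receptor of naive pluripotency, stood at 0 FPKM in the knockdown and 32.5 FPKM in the H3.2-labelled library, beside 1.29 untreated, 66.5 with luciferase and 13.9 with H3.3 mRNA. Mycn stood at 0 FPKM in the knockdown and 16.6 FPKM in the H3.2-labelled library, beside 0 untreated, 13.5 with luciferase and 19.9 with H3.3 mRNA. Pou5f1, the core factor of pluripotent cells, stood at 479 FPKM in the knockdown and 157 FPKM in the H3.2-labelled library, beside 1250 untreated, 849 with luciferase and 391 with H3.3 mRNA. Esrrb and Mycn were listed at 0 in the knockdown, whereas Pou5f1 was lowest in the H3.2-labelled library. Among members that averaged at least 50 FPKM the list lay under all genes, at -0.28 relative to their median, and among genes above 0 in every library at -0.45. Of 28 genes of trophectoderm and primitive endoderm, 6 were at least 4-fold higher (21.4%, near the 19.5% of all genes) and 1 lower, with a median of 0.82. Without a filter on low values, that median was level with all genes, at 0.0 relative to them. Krt8, a keratin of the first epithelium, stood at 0 FPKM in the knockdown and 44.8 FPKM in the H3.2-labelled library, beside 184 untreated, 836 with luciferase and 22.5 with H3.3 mRNA. Ovol1 stood at 0 FPKM in the knockdown and 20.3 FPKM in the H3.2-labelled library, beside 7.41 untreated, 76.8 with luciferase and 52.7 with H3.3 mRNA. Both were listed at 0 in the knockdown, and both were higher in the luciferase library than in the H3.2-labelled one. Of 45 genes of epithelial junctions and transport, 11 were at least 4-fold higher (24.4%) and 1 lower, with a median of 0.82. Marveld2, a tight junction protein, stood at 0 FPKM in the knockdown and 42 FPKM in the H3.2-labelled library, beside 2.3 untreated, 82.8 with luciferase and 47.7 with H3.3 mRNA. Pard3, which sets cell polarity, stood at 8.77 FPKM in the knockdown and 169 FPKM in the H3.2-labelled library, beside 66.3 untreated, 96.1 with luciferase and 15.7 with H3.3 mRNA. Dsp, desmoplakin, stood at 0 FPKM in the knockdown and 11.9 FPKM in the H3.2-labelled library, beside 0 untreated, 95 with luciferase and 4.22 with H3.3 mRNA. Pard3 was highest in the H3.2-labelled library, and the others were highest with luciferase.

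Maternal transcripts showed no common direction. Of 72 oocyte and maternal-effect genes, 34 were higher and 38 lower by any amount, with a median of -0.05. At 4-fold, 9 were higher (12.5%, against 19.5% of all genes) and 9 lower (12.5%, against 9.11%). Cpeb1, which controls the polyadenylation of stored mRNA, stood at 0 FPKM in the knockdown and 45.5 FPKM in the H3.2-labelled library, beside 2.81 untreated, 0 with luciferase and 4.77 with H3.3 mRNA. Mos, the kinase that holds meiotic arrest, stood at 43.1 FPKM in the knockdown and 0 FPKM in the H3.2-labelled library, beside 289 untreated, 0 with luciferase and 18.2 with H3.3 mRNA. Gdf9, a factor secreted by oocytes, stood at 550.2 FPKM in the knockdown and 177 FPKM in the H3.2-labelled library, beside 1332 untreated, 81.2 with luciferase and 330.2 with H3.3 mRNA. Of these 3, only Cpeb1 was higher in the H3.2-labelled library than in the knockdown. Bmp15, the partner of Gdf9, stood at 13.9 FPKM in the knockdown and 112 FPKM in the H3.2-labelled library, beside 68.2 untreated, 2.13 with luciferase and 24.9 with H3.3 mRNA. Zar1, an RNA-binding maternal-effect protein, stood at 173 FPKM in the knockdown and 18.4 FPKM in the H3.2-labelled library, beside 639 untreated, 5.76 with luciferase and 64.4 with H3.3 mRNA. Cpeb1 and Bmp15 were highest in the H3.2-labelled library, whereas Gdf9 and Zar1 were lower in it than in the knockdown and lowest with luciferase. Relative to all genes, the list's median was -0.20, and 0.34 with the length trend removed. Of 49 genes of the 2-cell stage and genome activation, 3 were at least 4-fold higher (6.12%) and 2 lower (4.08%), with a median of -0.01. Zfp352 stood at 15 FPKM in the knockdown and 118 FPKM in the H3.2-labelled library, beside 396 untreated, 1.37 with luciferase and 137 with H3.3 mRNA. Usp17l5, a deubiquitinase with near-identical copies, stood at 33.4 FPKM in the knockdown and 237 FPKM in the H3.2-labelled library, beside 0 untreated, 11.3 with luciferase and 24.1 with H3.3 mRNA. Obox1, a homeobox gene, stood at 138 FPKM in the knockdown and 27.6 FPKM in the H3.2-labelled library, beside 352 untreated, 14.6 with luciferase and 77.9 with H3.3 mRNA. Usp17l5 was highest in the H3.2-labelled library, whereas Zfp352 and Obox1 were highest in untreated embryos.

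Mitotic genes had a median above that of all genes but no larger share past 4-fold. Of 72 mitotic genes, 51 were higher and 21 lower by any amount, with a median of 0.59. At 4-fold, 13 were higher, or 18.1% against 19.5% of all genes, and 2 lower. Mki67, a protein of dividing chromosomes, stood at 5.81 FPKM in the knockdown and 180.3 FPKM in the H3.2-labelled library, beside 9.15 untreated, 102 with luciferase and 65.3 with H3.3 mRNA. Foxm1, a transcription factor of mitotic genes, stood at 14.6 FPKM in the knockdown and 189 FPKM in the H3.2-labelled library, beside 4.51 untreated, 61.5 with luciferase and 44.3 with H3.3 mRNA. Kif4, a chromosome kinesin, stood at 11.4 FPKM in the knockdown and 270.0 FPKM in the H3.2-labelled library, beside 143 untreated, 226 with luciferase and 207 with H3.3 mRNA. Mki67 and Kif4 were lowest in the knockdown, and Foxm1 in untreated embryos. Wee1, which restrains entry into mitosis, stood at 1.83 FPKM in the knockdown and 61.4 FPKM in the H3.2-labelled library, beside 1.71 untreated, 52.9 with luciferase and 24.8 with H3.3 mRNA. All 4 were highest in the H3.2-labelled library, which their choice by the largest difference favours. Mki67, Foxm1 and Wee1 were low in untreated embryos as well as in the knockdown. Of 60 DNA replication genes, 7 passed 4-fold upward (11.7%) and 1 downward, with a median of 0.40. Pole, the leading-strand polymerase, stood at 8.79 FPKM in the knockdown and 91.4 FPKM in the H3.2-labelled library, beside 7.31 untreated, 69.3 with luciferase and 49.6 with H3.3 mRNA. Mcm10, an initiation factor, stood at 66.5 FPKM in the knockdown and 416 FPKM in the H3.2-labelled library, beside 742 untreated, 638 with luciferase and 324 with H3.3 mRNA. Rpa3, the smallest subunit of the single-strand binding protein, stood at 589 FPKM in the knockdown and 81.2 FPKM in the H3.2-labelled library, beside 254 untreated, 123 with luciferase and 195 with H3.3 mRNA. Rpa3, with a transcript of 682 bases, was lowest in the H3.2-labelled library. The mitotic list stayed 0.20 or more above all genes under each alternative, whereas the replication list was at -0.01 with the length trend removed.

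Stress genes also had a median above that of all genes, and a smaller share past 4-fold. Of 63 genes of the heat shock and unfolded protein responses, 44 were higher and 17 lower by any amount, 10 at least 4-fold higher (15.9%, against 19.5% of all genes) and 2 lower, with a median of 0.55. Atf6, a sensor of the endoplasmic reticulum, stood at 6.28 FPKM in the knockdown and 99.3 FPKM in the H3.2-labelled library, beside 20.9 untreated, 98.8 with luciferase and 61.7 with H3.3 mRNA. Atf3, a factor induced by stress, stood at 0 FPKM in the knockdown and 41.8 FPKM in the H3.2-labelled library, beside 0 untreated, 15.7 with luciferase and 28.4 with H3.3 mRNA. Chac1, a glutathione-degrading enzyme of the same response, stood at 0 FPKM in the knockdown and 15 FPKM in the H3.2-labelled library, beside 0 untreated, 0 with luciferase and 0 with H3.3 mRNA. Chac1 was above 0 in the H3.2-labelled library alone and so passed the filter only through it. Atf6 was as high with luciferase. The list's median, relative to all genes, stayed between 0.33 and 0.93 under the alternatives tried. The shares of the next lists at 4-fold are to be read against 19.5% higher and 9.11% lower among all genes. Of 90 ribosome biogenesis genes, 6 passed 4-fold upward (6.67%) and 2 downward (2.22%), with a median of 0.29. Of 53 translation factors, 3 were at least 4-fold higher (5.66%) and 0 lower, with a median of -0.17. Of 50 genes of glycolysis and the TCA cycle, 4 were higher (8.0%) and 3 lower (6.0%), with a median of 0.07. Of 52 genes of p53 and apoptosis, 8 were higher (15.4%) and 3 lower (5.77%), with a median of 0.09. Of 42 germline genes, 11 were higher (26.2%) and 4 lower (9.52%), with a median of 0.39. Relative to all genes, the median of translation factors turned to 0.49 with quantile normalization and that of germline genes to -0.20 at a mean of 50 FPKM or more. Ddx4, an RNA helicase of germ cells, stood at 0 FPKM in the knockdown and 44.4 FPKM in the H3.2-labelled library, beside 2.99 untreated, 19.4 with luciferase and 4.81 with H3.3 mRNA. Nanos3, an RNA-binding protein of germ cells, stood at 0 FPKM in the knockdown and 91.1 FPKM in the H3.2-labelled library, beside 0 untreated, 34.6 with luciferase and 17 with H3.3 mRNA. Both were listed at 0 in the knockdown and highest in the H3.2-labelled library.

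Markers of other cell types were mostly listed at 0. Of 30 markers of cumulus and granulosa cells, which surround the oocyte, 17 were at 0 in the H3.2-labelled library and 23 in the knockdown, and their summed level was 1470 and 1820 FPKM, within 1160 to 1940 in the other 3. Of the 14 past the filter, 7 were at least 4-fold higher and 2 lower, beside 19.5% and 9.11% of all genes. Their median was 1.81. Relative to all genes, it was at -0.50 when only genes that averaged 5 FPKM or more were used. Of 44 fibroblast markers, 29 were at 0 in the H3.2-labelled library and 34 in the knockdown, with sums of 288 and 631 FPKM and of 399 to 1320 in the other 3. Of 45 blood and endothelial markers, 27 and 33 were at 0, with sums of 1850 and 3990 FPKM and of 2680 to 3280 in the other 3. Hba-a1, a haemoglobin gene, stood at 49 FPKM in the knockdown and 0 FPKM in the H3.2-labelled library, beside 9.46 untreated, 1.95 with luciferase and 15.8 with H3.3 mRNA. Of 36 neural and muscle markers, 30 and 33 were at 0, with sums of 138 and 258 FPKM. Each of the 4 sums was lower in the H3.2-labelled library than in the knockdown, as was the sum of all genes. As a share of that sum, the cumulus markers were higher, at 0.0595% against 0.0508%, and the fibroblast (0.0117% against 0.0176%), blood (0.0749% against 0.112%) and neural and muscle markers (0.00559% against 0.00721%) were lower. The part of such cells in the results was not tested.

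Few genes set the H3.2-labelled library apart from all 4 others. It was at least 4-fold above each of them for 349 genes, 2.66% of those compared, and at least 4-fold below each for 75 genes, or 0.571%. The knockdown was at least 4-fold above each of the others for 251 genes, 1.91%, and below each for 420 genes, 3.2%. Of the 2558 higher genes, 766 belonged to at least 1 of these sets, 3 of them to both, and for 1792 neither library stood apart from the rest. Of the 349 genes, 219 had a listed 0 in the 4 others and so passed the filter only through the H3.2-labelled library. Of the 75 genes, 39 had a listed 0 in the H3.2-labelled library. For the knockdown, 99 of the 251 genes had a listed 0 in the 4 others, and 266 of the 420 had a listed 0 in the knockdown. The filter admits genes by a high value in 1 library, so the counts above and below cannot be set against each other. Against single libraries, the H3.2-labelled one was at least 4-fold apart, in either direction, for 20.3% of genes from luciferase, 21.0% from H3.3 mRNA and 36.8% from untreated embryos, and these comparisons share its values.

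Jak2, a kinase of cytokine receptors, stood at 39.1 FPKM in the knockdown and 545 FPKM in the H3.2-labelled library, beside 74.3 untreated, 25.3 with luciferase and 45.8 with H3.3 mRNA. Ccdc6 stood at 34.5 FPKM in the knockdown and 459 FPKM in the H3.2-labelled library, beside 60.3 untreated, 28.7 with luciferase and 81 with H3.3 mRNA. Iqca stood at 22.1 FPKM in the knockdown and 206 FPKM in the H3.2-labelled library, beside 31.9 untreated, 12.4 with luciferase and 5.33 with H3.3 mRNA. Each was higher in the H3.2-labelled library than in any other by over 4-fold, and the 4 others lay closer together. Ankrd44, a regulatory subunit of a protein phosphatase, stood at 7.66 FPKM in the knockdown and 102 FPKM in the H3.2-labelled library, beside 12.4 untreated, 14.3 with luciferase and 14.8 with H3.3 mRNA. Il7, a cytokine, stood at 1.61 FPKM in the knockdown and 53.4 FPKM in the H3.2-labelled library, beside 6.74 untreated, 4.77 with luciferase and 3.24 with H3.3 mRNA. Eea1, a tether of early endosomes, stood at 3.96 FPKM in the knockdown and 53.2 FPKM in the H3.2-labelled library, beside 1.47 untreated, 7.98 with luciferase and 7.6 with H3.3 mRNA. Il7 and Ankrd44 had their lowest value in the knockdown, and Eea1 in untreated embryos. Far2, a fatty acyl-CoA reductase, stood at 0.02 FPKM in the knockdown and 12.8 FPKM in the H3.2-labelled library, beside 0.01 untreated, 0.01 with luciferase and 0.01 with H3.3 mRNA. Rsbn1 stood at 0.12 FPKM in the knockdown and 10.6 FPKM in the H3.2-labelled library, beside 0.09 untreated, 0.33 with luciferase and 0.11 with H3.3 mRNA. For Far2 and Rsbn1 the 4 others were near 0. Prss53 stood at 5.03 FPKM in the knockdown and 40.8 FPKM in the H3.2-labelled library, beside 3.64 untreated, 1.38 with luciferase and 5.78 with H3.3 mRNA. Ugt1a7c stood at 1.67 FPKM in the knockdown and 16.3 FPKM in the H3.2-labelled library, beside 1.2 untreated, 0.57 with luciferase and 0.29 with H3.3 mRNA, and it shares exons with the other genes of its cluster. All 10 genes so ranked have a longest transcript of over 2000 bases, but most genes do, since the median of all genes is 3184 bases.

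Ckmt1, the mitochondrial creatine kinase, stood at 109 FPKM in the knockdown and 3.24 FPKM in the H3.2-labelled library, beside 117 untreated, 238 with luciferase and 129 with H3.3 mRNA. Chga, chromogranin A, stood at 104 FPKM in the knockdown and 2.48 FPKM in the H3.2-labelled library, beside 230.0 untreated, 65.2 with luciferase and 33 with H3.3 mRNA. Arpc1b, a subunit of the actin-nucleating Arp2/3 complex, stood at 63 FPKM in the knockdown and 6.07 FPKM in the H3.2-labelled library, beside 312 untreated, 103 with luciferase and 105 with H3.3 mRNA. For Ckmt1 the 4 other libraries lay between 109 and 238 FPKM, whereas Chga and Arpc1b were highest in untreated embryos. Fkbpl stood at 153 FPKM in the knockdown and 6.8 FPKM in the H3.2-labelled library, beside 55.6 untreated, 91 with luciferase and 177 with H3.3 mRNA. Spdya, an activator of cyclin-dependent kinases in meiosis, stood at 17 FPKM in the knockdown and 0.97 FPKM in the H3.2-labelled library, beside 58 untreated, 13.3 with luciferase and 18 with H3.3 mRNA. Abhd14a stood at 477 FPKM in the knockdown and 15.3 FPKM in the H3.2-labelled library, beside 279.9 untreated, 116 with luciferase and 166 with H3.3 mRNA. Abhd14a was highest in the knockdown. Fam100b stood at 29.9 FPKM in the knockdown and 0.05 FPKM in the H3.2-labelled library, beside 9.04 untreated, 17.4 with luciferase and 21.2 with H3.3 mRNA. Each of these was lowest in the H3.2-labelled library, and Fkbpl was highest with H3.3 mRNA. Dusp28 stood at 131 FPKM in the knockdown and 1.63 FPKM in the H3.2-labelled library, beside 224 untreated, 20.4 with luciferase and 86.8 with H3.3 mRNA. Efhd2, a calcium-binding protein, stood at 60.9 FPKM in the knockdown and 6.01 FPKM in the H3.2-labelled library, beside 469.7 untreated, 47.7 with luciferase and 62.9 with H3.3 mRNA. Lsm5, given above, completes the 10 genes of this order, of which 8 have a longest transcript of at most 2000 bases.

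**Figure D5:**
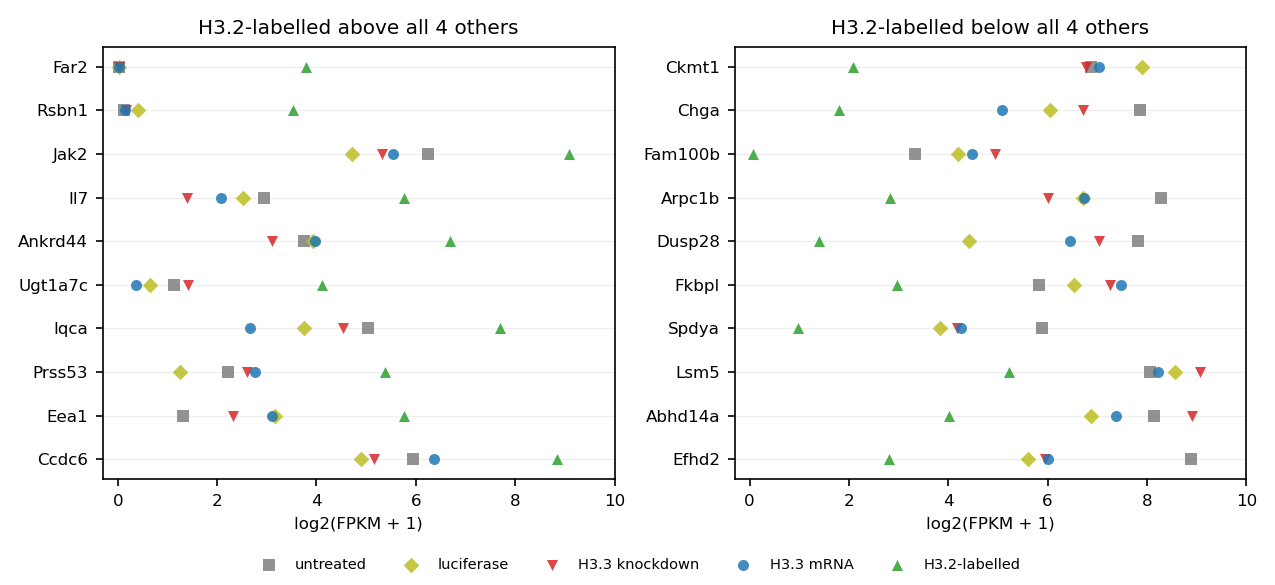
The 10 genes for which the H3.2-labelled library lay farthest above (left) and below (right) all 4 other libraries are drawn with their log2(FPKM + 1) in each of the 5 libraries, 1 symbol a library. The H3.2-labelled symbol stands alone in every line, as the ranking requires; Jak2 reaches 545 FPKM and Chga is at 2.48.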

How the data were processed

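RNA of 5 libraries of mouse 4-cell nuclear transfer embryos was sequenced with Illumina TruSeq chemistry, in single-read mode at 51 bases, per the labels. TopHat, Cufflinks and the mm9 build are named in the submitters' processing notes, without versions. The deposited files give FPKM for 22026 gene symbols, as the authors computed them; values are relative to the library's mapped reads, so abundant transcripts shift the share of all others, and near-identical gene copies can trade reads. The depth is unknown, and no interval or detection limit is given.

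Groups were taken from the titles. Differences were computed as log2(FPKM + 1), H3.2-labelled minus knockdown, over genes whose mean reached 1 FPKM, with Python 3.11.15, pandas 2.3.3 and numpy 2.4.6. With 1 library a group there was no test. Transcript length and GC content came from the longest transcript of each symbol in the GENCODE annotation of GRCm38; trends were removed by LOWESS (statsmodels 0.14.6, fraction 0.3). No coordinates are printed, because that build differs from mm9. The script was tested on simulated data.

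The members and the 31 gene lists were chosen with earlier results of these data known. Genes are named by a rule: the 15 highest and lowest above 0 in both libraries, the 8 at each end listed at 0 in 1 of them, the 6 at each end whose mean reached 500 FPKM, the 10 at each end for which the H3.2-labelled library lay apart from all others, the 4 members of each list with the largest difference, and the H3 genes; clone names were left out, and not every gene so named is described. Cleavage embryo markers are also named. Alternatives were other pseudocounts, filters, folds and scalings, and removal of the length or GC trend. Of the 1645 list members, 1616 matched a symbol.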

Additional observations from a re-analysis of the deposited data

How the results depend on the processing

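No paired analysis was possible because each group has 1 library, and no replicate could be left out. The count of 2558 higher and 1198 lower genes became 1171 higher with a pseudocount of 5, 458 and 493 at a mean of at least 50 FPKM, 861 and 545 among genes above 0 in all 5 libraries, 4400 and 2817 at 2-fold, and 1353 and 571 at 8-fold. Scaling each library to the same sum, an alternative chosen after seeing the data, gave 624 lower genes. Of the called genes, 68.1% were higher as deposited, 79.6% with that scaling, 55.0% with quantile normalization, 77.5% with upper-quartile scaling, 59.0% with a pseudocount of 5 and 48.2% at a mean of at least 50 FPKM. The median of all genes, 0.15, was 0.0 without a filter, -0.06 at 50 FPKM, 0.52 with upper-quartile scaling, 0.05 with quantile normalization or the GC trend removed, and 0.60 when scaled to the same sum. List medians are read relative to it: 13 of 29 moved by at most 0.5 under every alternative, that of imprinted genes turned to -0.12 when scaled to the same sum, and that of cumulus markers to -0.50 at a mean of at least 5 FPKM. Among lists nearer to all genes, the sign also turned for translation factors (-0.32 to 0.49, quantile normalization), pluripotency (0.37 to -0.45, genes above 0 in every library), oocyte (-0.20 to 0.34, length trend removed) and germline genes (0.24 to -0.20, mean of at least 50 FPKM); 7 further lists, at -0.27 to 0.25 as deposited, turned as well. Of 195 named genes, 140 stayed on their side of 4-fold in every alternative. Of those at least 4-fold apart as deposited, 0 turned direction. Turns of smaller differences were not counted, and Acta1, for example, went from -0.67 to 0.12 with the length trend removed. A pseudocount of 5 moved 30 genes across the 4-fold line and removing the length trend 26. Among the latter were Mt2, Timm8b, Bex1, Tfrc, Hsph1, Gpd2 and Kif23. The cause of these shifts was not tested. The unknown depth limits values near 0 most.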
